A study of Mus musculus with 8 samples.

Results

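Mitochondrial ribosomal proteins are the nuclear-encoded proteins of the mitoribosome, and 78 of their genes were found among the 23360 genes measured, as every mouse symbol that has Mrpl or Mrps followed by a number. Of these, 49 carry the large-subunit prefix Mrpl and 29 the small-subunit prefix Mrps. All 78 passed the filter on low values, a value of 10 or more in 4 or more libraries. RNA came from the inguinal fat pad, a subcutaneous white depot, of 6-week-old mice. The 4 Lsd1 KO libraries were from mice with a floxed Lsd1 gene and the Adipoq-Cre transgene, and the 4 Control libraries from mice with the floxed gene alone. Both groups therefore share the floxed allele. The Adipoq promoter drives Cre in adipocytes, so the other cells of the pad keep Lsd1. The controls lack this transgene, and its own effects and those of the deletion cannot be told apart. The labels used here do not give sex or strain, nor do they say that each library is a separate mouse. P-values therefore reflect the variation among these 8 samples, part of which may be technical.

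The mitoribosome translates the few messages of mitochondrial DNA, all of which encode membrane subunits of the respiratory chain and ATP synthase. Its ribosomal RNAs come from mitochondrial DNA, but every protein is made in the cytosol from a nuclear gene and imported, so assembly depends on the matched supply of many small proteins. Some have counterparts in the bacterial ribosome and others exist only in mitochondria. In fat, mitochondrial translation is required for oxidative capacity, which is high in brown and beige adipocytes. Kdm1a is the gene for Lsd1, an enzyme that removes methyl groups from histones.

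The mitoribosomal genes lay on 17 chromosomes. Of the 78, 25 (32.1%) had a protein-coding neighbour transcribed in the opposite direction from a start within 1000 bases, against 1836 of 14059 (13.1%) of the tested genes with an annotated transcript in GENCODE M21. In 1 such pair both genes encode mitoribosomal proteins: Mrps11 of the small subunit and Mrpl46 of the large subunit, on chromosome 7. Other neighbours serve mitochondria too, such as Twnk, the mitochondrial DNA helicase, beside Mrpl43, and Sars2, the mitochondrial seryl-tRNA synthetase, beside Mrps12.

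Upstream windows were taken for the 3 members with the smallest p-values in the comparison of genotypes, Mrpl9, Mrpl45 and Mrps18a, and for the pair that shares a promoter. Each is the 250 bases before a RefSeq transcript start, 5′ to 3′ on the gene's strand, in GRCm38.p6. Capitals mark matches, on either strand, to the letters GCATGCGC (a core of NRF1 sites), CCGGAAG (ETS factors such as GABPA), AAGATGGC (YY1) or GGGCGG (SP factors). The GCATGCGC match can overlap its own reverse complement GCGCATGC, as in Mrpl9. The windows are Mrpl9 at chr3:94443086-94443335 (plus strand), Mrpl45 at chr11:97315466-97315715 (plus), Mrps18a at chr17:46110754-46111003 (plus), Mrps11 at chr7:78782881-78783130 (plus) and Mrpl46 at chr7:78783090-78783339 (minus).
Mrpl9: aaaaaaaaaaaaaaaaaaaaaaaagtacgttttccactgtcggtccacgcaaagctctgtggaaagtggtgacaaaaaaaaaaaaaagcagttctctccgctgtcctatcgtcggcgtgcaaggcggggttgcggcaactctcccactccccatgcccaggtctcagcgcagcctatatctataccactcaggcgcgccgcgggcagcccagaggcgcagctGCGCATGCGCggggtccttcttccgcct
Mrpl45: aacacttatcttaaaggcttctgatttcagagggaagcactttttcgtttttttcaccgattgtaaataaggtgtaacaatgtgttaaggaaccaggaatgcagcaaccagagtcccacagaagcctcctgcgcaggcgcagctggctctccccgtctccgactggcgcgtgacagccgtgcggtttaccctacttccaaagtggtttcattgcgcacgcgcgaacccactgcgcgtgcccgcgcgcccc
Mrps18a: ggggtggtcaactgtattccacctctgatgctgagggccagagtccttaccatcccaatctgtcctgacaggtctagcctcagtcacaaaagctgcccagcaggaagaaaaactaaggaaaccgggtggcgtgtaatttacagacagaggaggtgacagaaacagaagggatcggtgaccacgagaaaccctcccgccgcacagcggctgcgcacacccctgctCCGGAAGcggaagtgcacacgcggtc
Mrps11: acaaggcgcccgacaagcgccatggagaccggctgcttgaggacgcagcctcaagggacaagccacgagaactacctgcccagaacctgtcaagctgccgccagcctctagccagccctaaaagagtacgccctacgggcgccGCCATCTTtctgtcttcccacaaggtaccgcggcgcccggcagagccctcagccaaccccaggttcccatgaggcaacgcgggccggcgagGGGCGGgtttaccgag
Mrpl46: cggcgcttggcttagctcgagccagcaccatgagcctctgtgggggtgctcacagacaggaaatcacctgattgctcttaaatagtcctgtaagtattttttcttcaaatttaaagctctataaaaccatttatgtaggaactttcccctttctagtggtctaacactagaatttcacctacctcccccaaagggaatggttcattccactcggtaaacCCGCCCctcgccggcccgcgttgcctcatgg

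The last pair of windows overlaps head to head and holds 1 SP match in common, read as GGGCGG in Mrps11 and as CCGCCC in Mrpl46. The window of Mrpl45 holds no match, which says only that these letters are not in it. That window lies wholly inside the annotated span of Mrpl45, 97314923 to 97329920, so the sequence before the span was not examined. The Mrpl9 window also runs past the annotated start of its gene, 94443154, and the NRF1 match lies in that part. RefSeq windows were at hand for 69 of the 78 genes, with 75 windows in all. The NRF1 letters were in 8 of 75 (10.7%), against 3.85% of the 14236 windows of all tested genes. The ETS letters were in 18 (24.0%), against 12.2%, and the YY1 letters in 4 (5.33%), against 1.87%. The SP letters were in 37 (49.3%), against 55.0%. These shares are descriptions with no test, and a match is not a bound site.

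Kdm1a, the targeted gene, was lower in the knockouts. It had 566, 578, 547 and 581 scaled reads in Lsd1 KO replicates 1 to 4, against 699, 685, 799 and 735 in Control replicates 1 to 4, where scaled reads are read counts that the authors multiplied by 1 factor per library. Every knockout library was below every control. The log2 difference was -0.36 with an SE of 0.075 (limma, Benjamini-Hochberg adjusted p = 0.0498), and the exact two-sided permutation p of 0.0286 is the smallest that 70 assignments give. The call was lost when any 1 library was left out, with limma adjusted p from 0.0579 to 0.152. All differences below are Lsd1 KO minus Control on the log2(value + 1) scale from a limma fit over 14591 genes, and a call means an adjusted p under 0.05 over all of them. The recovered reads numbered 25671837 to 32442724 per library, and single members held 19 to 5226 of them. Summed levels of 10 adipocyte markers were 326371 to 359216 scaled reads in the knockouts, against 398491 to 520572 in the controls. Of the 10, limma called 1, the lipid-droplet gene Cidec, with 17180, 13394, 14368 and 14395 in the knockouts, against 29345, 31403, 30307 and 28205 in the controls. Fabp4, Lipe and Cd36 were not called but also had every knockout below every control, as did 3.58% of all genes. Adipoq, Plin1, Lep, Pnpla2, Lpl and Retn overlapped between the groups. In bulk tissue, fewer cells of a type and less RNA per cell cannot be told apart.

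No mitoribosomal gene passed the test in either direction. Of the 49 large-subunit genes 0 were higher and 0 lower, and of the 29 small-subunit genes 0 were higher and 0 lower, against a background of 239 of 14591 genes called (1.64%), 187 higher (1.28%) and 52 lower (0.356%). With edgeR and with DESeq2 on the recovered reads 0 were called as well, against 218 and 776 of the 14591 genes. At an unadjusted limma p under 0.05, 3 of the 78 stood out (2 large, 1 small), against 14.5% of all genes. In 0 of the 78 did the groups fail to overlap, against 5.06% of all genes with every knockout above every control and 3.58% with every knockout below. The smallest adjusted p was 0.268 in the large subunit and 0.332 in the small subunit (limma).

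The differences centred near 0 in both subunits. The median log2 difference was -0.006 for the large subunit, with 23 positive and 26 negative values from -0.28 to 0.24. It was -0.027 for the small subunit, with 10 positive and 19 negative values from -0.32 to 0.30, and 0.023 over all genes tested. With library totals as the scaling the large-subunit median was 0.006, so its sign has no weight. Two-sided 95% intervals from the fit lay wholly within a 1.5-fold change (0.585 on the log2 scale) for 74 of the 78 genes (94.9%), against 66.6% of all genes tested. The exceptions were Mrpl23, Mrps6, Mrps35 and Mrps36. Mrps18a and Mrps30 are placed in the large subunit by structure despite their names, and Mrps36 is now known as a part of the 2-oxoglutarate dehydrogenase complex. With the first pair moved and Mrps36 dropped, the medians were -0.019 for 51 large-subunit and -0.026 for 26 small-subunit genes.

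**Figure D1:**
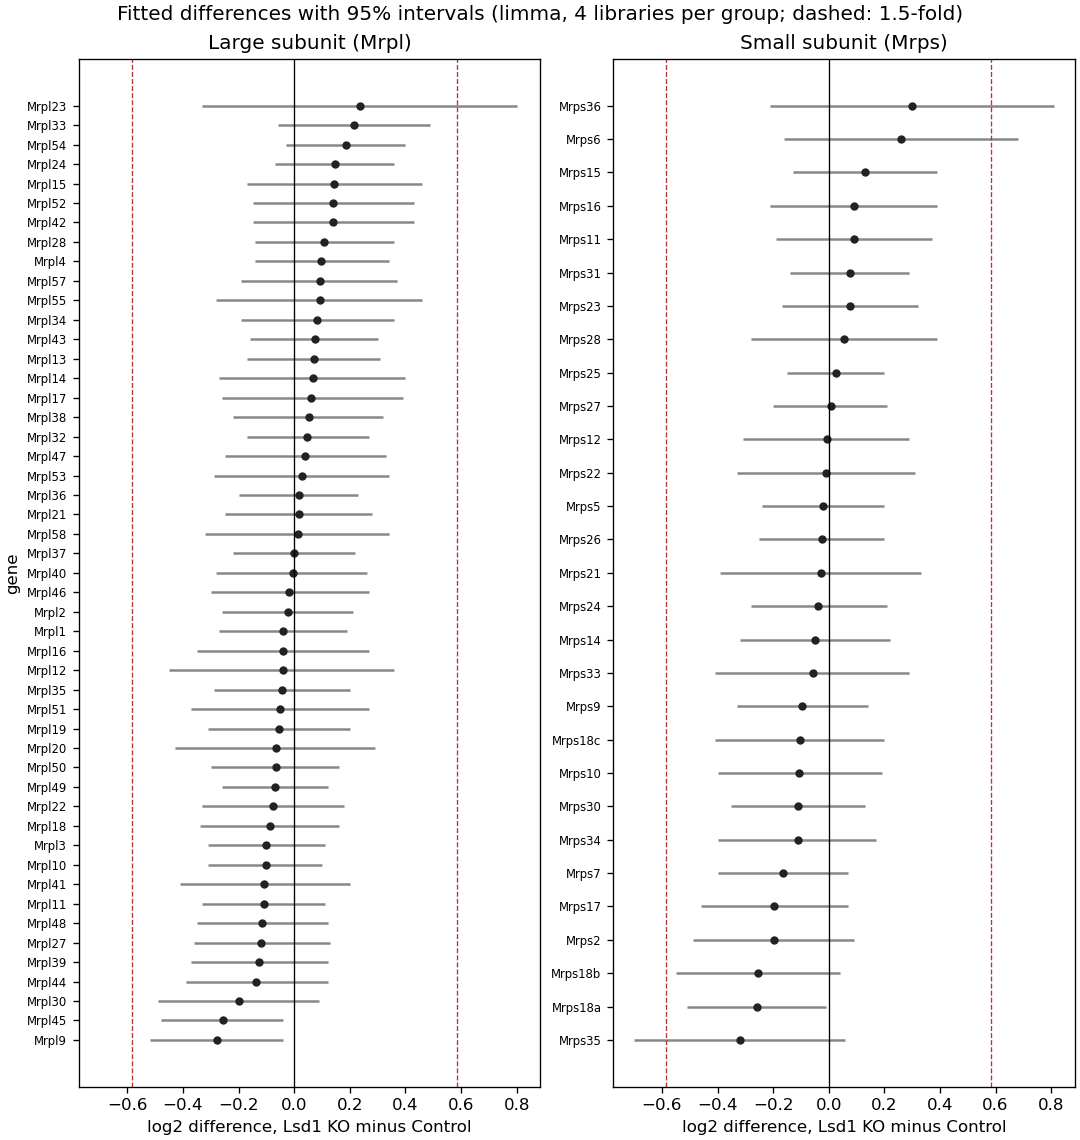
Fitted log2 difference, Lsd1 KO minus Control, for each of the 49 Mrpl genes (left) and 29 Mrps genes (right), with its 95% interval from limma (4 libraries per group). Points run from -0.28 to 0.24 in the large and from -0.32 to 0.30 in the small subunit, and only 4 intervals cross a dashed line at a 1.5-fold change.

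Among large-subunit proteins, the lowest values belonged to Mrpl9 and Mrpl45. Mrpl9, the counterpart of bacterial L9 (chromosome 3, 94443154 to 94448708), had 895, 691, 784 and 787 scaled reads in Lsd1 KO replicates 1 to 4, against 807, 1005, 969 and 1054 in the controls. The groups overlapped through knockout replicate 1 and Control replicate 1. Its log2 difference was -0.28 with an SE of 0.11 and a 95% interval of -0.52 to -0.04 (limma adjusted p = 0.271, exact permutation p = 0.0571). Mrpl45, which lies near the tunnel exit and helps to hold the ribosome at the inner membrane (chromosome 11, 97314923 to 97329920), had 487, 530, 626 and 520 in the knockouts, against 651, 693, 578 and 659 in the controls. Here knockout replicate 3 lay above the lowest control. The difference was -0.26 with an SE of 0.098 (95% interval -0.48 to -0.04, limma adjusted p = 0.268, exact permutation p = 0.0571). Mrpl30 averaged 894 ± 166 in the knockouts and 1018 ± 93.8 in the controls, and Mrpl44, which has an RNase III-like fold, 473 ± 63.9 in the knockouts and 518 ± 53.1 in the controls (SD, n = 4 each). Their log2 differences were -0.20 and -0.14, each within its replicate spread.

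The highest large-subunit values were those of Mrpl23, Mrpl33, Mrpl54 and Mrpl24. Mrpl54, which has no bacterial counterpart, had 378, 426, 498 and 450 scaled reads in the knockouts, against 381, 405, 369 and 377 in the controls. Knockout replicates 2 to 4 lay above all controls and replicate 1 did not. Its log2 difference was 0.19 with an SE of 0.097 (limma adjusted p = 0.425). Mrpl33 had 629, 590, 857 and 719 in the knockouts, against 559, 671, 544 and 615 in the controls, and a difference of 0.22 with an SE of 0.12 (limma adjusted p = 0.476). Of its exon bases 37.0% are shared with the annotated gene Gm43809, and strand is not given, so reads of the pair cannot be told apart. Mrpl24 averaged 1219 ± 155 in the knockouts and 1097 ± 70.3 in the controls (log2 difference 0.15), with 48.5% of its exon bases shared with Rrnad1. Mrpl23 held only 12, 11.4, 17.2 and 9.99 in the knockouts, against 11.2, 9.83, 9.3 and 11.3 in the controls, so its difference of 0.24 (SE 0.25) rests on few reads, and a named pseudogene, Mrpl23-ps1, could share them.

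In the small subunit the lowest values were those of Mrps35, Mrps18a, Mrps18b and Mrps2. Mrps18a (chromosome 17, 46111004 to 46128908) is 1 of a trio of paralogues of bacterial S18. It had 478, 522, 631 and 475 scaled reads in the knockouts, against 676, 670, 620 and 547 in the controls. Only knockout replicate 3 reached above the lower controls, replicates 3 and 4. The log2 difference was -0.26 with an SE of 0.11 (95% interval -0.51 to -0.01, limma adjusted p = 0.332, exact permutation p = 0.0857). Its paralogue Mrps18b had 231, 262, 340 and 233 in the knockouts, against 325, 322, 286 and 324 in the controls, a difference of -0.25 with an SE of 0.13 (limma adjusted p = 0.421). The exons of Mrps18b share 59.1% of their bases with Gm16279. The remaining paralogue, Mrps18c, averaged 279 ± 46.8 in the knockouts and 299 ± 34.6 in the controls (SD, n = 4 each), a difference of -0.10.

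Mrps35, a mitochondrial subunit with no bacterial counterpart, had 310, 386, 462 and 288 scaled reads in the knockouts, against 448, 563, 395 and 390 in the controls. Its log2 difference of -0.32 had an SE of 0.17 (limma adjusted p = 0.433), and both groups ranged widely. Mrps2, the counterpart of bacterial S2, averaged 609 ± 114 in the knockouts and 692 ± 58.5 in the controls (log2 difference -0.20, SE 0.13). At the other end, Mrps6 had 674, 927, 1309 and 926 in the knockouts, against 650, 957, 804 and 733 in the controls, a difference of 0.26 with an SE of 0.19 (limma adjusted p = 0.573). Mrps6 shares 36.1% of its exon bases with other annotated genes, Slc5a3 among them. Mrps36 had 43.1, 61.5, 77.0 and 53.4 in the knockouts, against 51.2, 57.0, 33.3 and 48.0 in the controls (difference 0.30, SE 0.23), with 3 named pseudogenes. Mrps15 and Mrps16 had differences of 0.13 and 0.09.

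**Figure D2:**
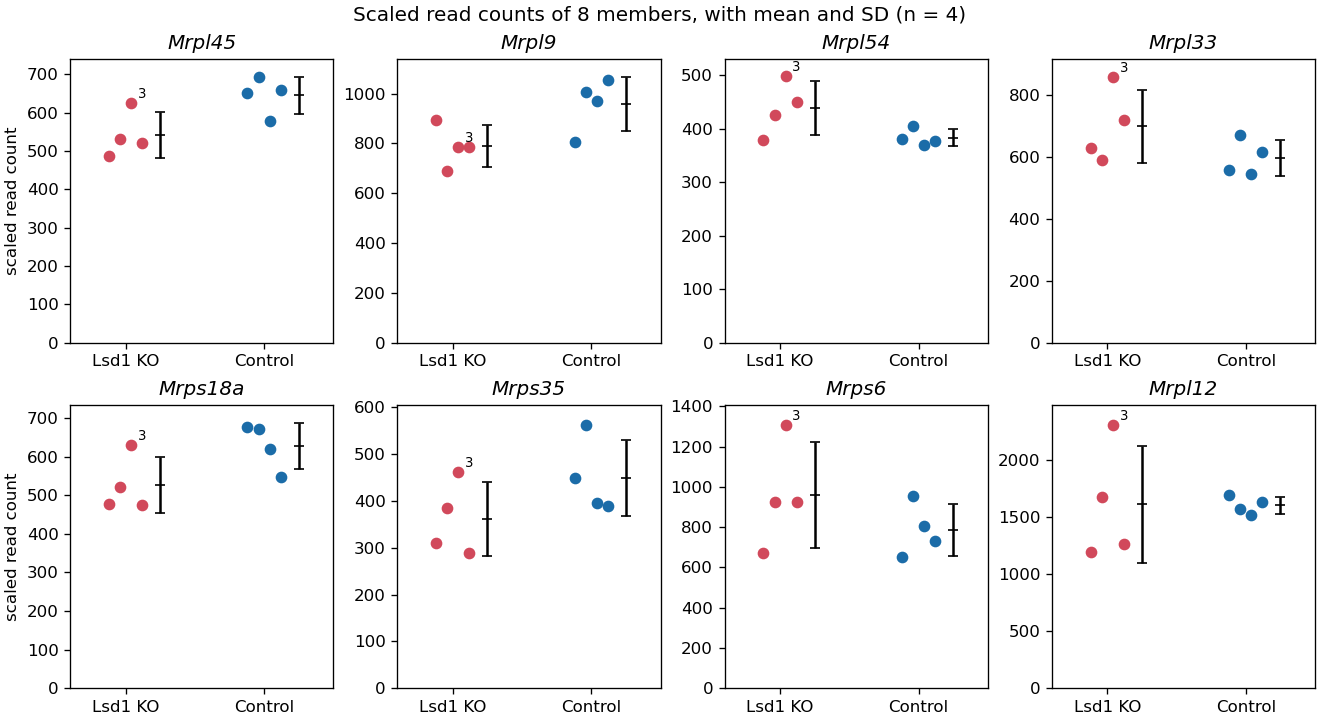
Scaled read counts of 8 members in Lsd1 KO (left, red) and Control libraries (right, blue), with the mean and SD of each group (n = 4). The digit 3 marks Lsd1 KO replicate 3, the highest of the 8 libraries for Mrpl54, Mrpl33, Mrps6 and Mrpl12, with 2312 scaled reads for Mrpl12.

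The members chosen by role and not described above, Mrpl12, Mrps12, Mrps22, Mrpl58, Mrpl3 and Mrpl41, had differences from -0.11 to 0.01. Mrpl12, which forms the stalk that recruits translation factors, had 1198, 1678, 2312 and 1270 scaled reads in the knockouts, against 1697, 1574, 1523 and 1632 in the controls. Its means were nearly equal, 1615 ± 511 in the knockouts and 1606 ± 74.7 in the controls (SD, n = 4 each), but knockout replicates 1 and 4 lay below and replicate 3 above every control. Mrps12, which acts in decoding accuracy, averaged 433 ± 63.1 in the knockouts and 435 ± 59.3 in the controls. Mrps22 averaged 267 ± 57.2 in the knockouts and 266 ± 20.4 in the controls. Mrpl58, a peptidyl-tRNA hydrolase built into the large subunit, averaged 423 ± 102 in the knockouts and 411 ± 24.1 in the controls. Mrpl3 and Mrpl41 had differences of -0.10 and -0.11, with SEs of 0.093 and 0.14. The head-to-head pair was alike as well: Mrps11 had 252, 304, 379 and 282 in the knockouts, against 289, 271, 292 and 278 in the controls, and Mrpl46 had 269, 330, 391 and 266 in the knockouts, against 314, 321, 303 and 319 in the controls.

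Levels differed far more between members than between genotypes. Per kilobase of transcript, with lengths from GENCODE M21 that may differ from those the authors counted on, the median level of large-subunit genes was 458 scaled reads in the knockouts and 432 in the controls. For the small subunit the median was 288 in the knockouts and 291 in the controls, and for all genes tested 136 in the knockouts and 133 in the controls. Among the controls the highest large-subunit level was 82.7 times the lowest, which was that of Mrpl23 and rested on few reads. The highest small-subunit level was 26.0 times the lowest. Ranked by the controls, the highest large-subunit levels were those of Mrpl33 (knockout 1462, control 1249) and Mrpl12 (knockout 1227, control 1221), and the highest small-subunit levels those of Mrps21 (knockout 1282, control 1279) and Mrps15 (knockout 1063, control 963). The lowest in the controls were Mrpl23 (knockout 18.3, control 15.1) and Mrpl48 (knockout 54.4, control 58.8) in the large subunit. In the small subunit they were Mrps33 (knockout 47.1, control 49.1) and Mrps36 (knockout 83.8, control 67.6). Ranked by the knockouts, Mrpl52 (knockout 1251) stood above Mrpl12, Mrps6 (knockout 1133) above Mrps15, and Mrps5 (knockout 78.6) below Mrps36. Since 28 of the 78 genes share exon bases with another gene, 11 of them over 25%, and the strand setting is not given, the levels of genes such as Mrpl53 (100% shared), Mrps25 (75.6%, with Nr2c2) and Mrps34 (62.7%) are uncertain.

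The 78 transcripts moved together from library to library, and most of that movement was inside the knockout group. After each gene's mean over the 8 libraries was subtracted, the median deviation of the 78 genes was -0.199, 0.006, 0.259 and -0.114 in Lsd1 KO replicates 1 to 4, against 0.005, 0.092, -0.066 and -0.009 in Control replicates 1 to 4. Lsd1 KO replicate 3 stood highest and replicate 1 lowest, and the controls lay between. Large and small subunits followed the same order within the knockouts: 0.285 for the large and 0.239 for the small subunit in replicate 3, and -0.192 and -0.229 in replicate 1. Replicate 3 was the highest of the 8 libraries for 58 of the 78 genes (39 large, 19 small), against 21.1% of all genes tested. Replicate 1 was the lowest for 42 (28 large, 14 small), against 11.2% of all genes.

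**Figure D3:**
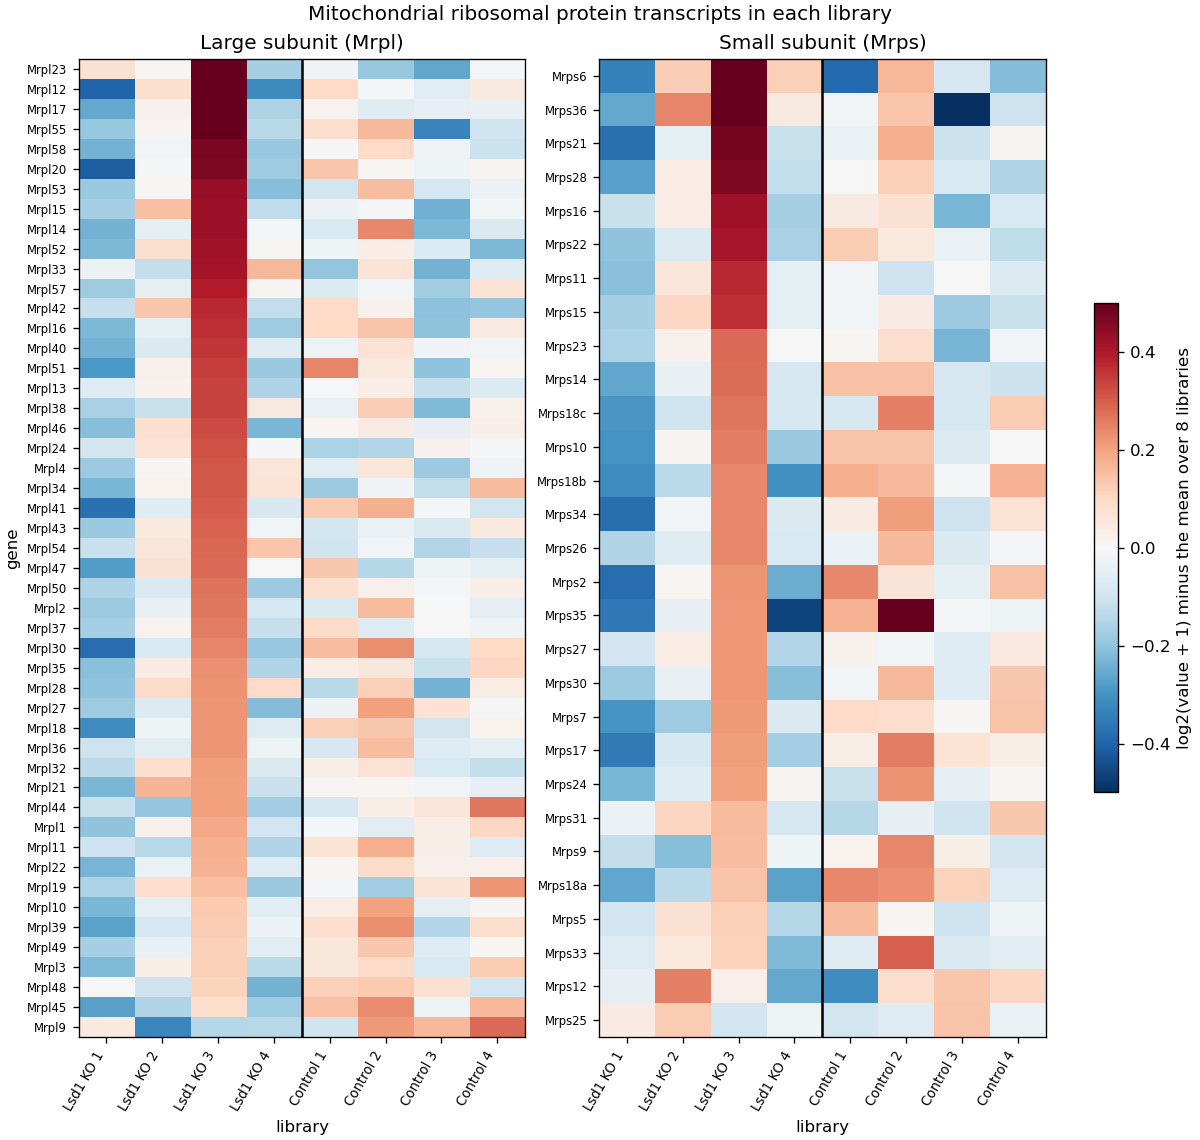
Log2(value + 1) of each member minus its mean over the 8 libraries, Lsd1 KO libraries left of the line and Control right, genes sorted by Lsd1 KO replicate 3. Colours end at 0.5 on either side of 0, and the column of Lsd1 KO replicate 3 is the reddest, with the highest value of the 8 libraries for 58 of 78 genes.

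As a share of the library, the members' summed reads were 0.2716%, 0.3083%, 0.3716% and 0.2909% in Lsd1 KO replicates 1 to 4, against 0.3077%, 0.3279%, 0.2970% and 0.3094% in the controls. The controls thus lay inside the range of the knockouts. The median SD of a member on the log2 scale was 0.218 among the knockouts, or 0.122 without replicate 3, and 0.111 among the controls. Over all genes it was 0.176 among the knockouts, 0.135 without replicate 3, and 0.169 among the controls. Replicate 3 exceeded each of the other knockouts for 75 of the 78 members (96.2%), against 32.1% of all genes. The exceptions were Mrpl9, Mrps12 and Mrps25. Over all genes this share fell with transcript length, from 65.5% under 1000 bases to 11.3% at 4000 bases or more. The median excess of replicate 3 over the mean of the other knockouts was 0.38 for the members and -0.03 for all genes.

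Transcript length moved with the same library. Over all genes, the median difference of Lsd1 KO replicate 3 from the mean of the other knockouts was 0.31 for transcripts under 1000 bases, 0.15 from 1000 to under 2000, -0.02 from 2000 to under 4000 and -0.22 at 4000 bases or more. The members gave 0.44 (26 genes), 0.36 (30), 0.35 (15) and 0.24 (7) in the same classes. The median of the members thus lay above that of all genes in each length class. Replicate 3 exceeded each of the other knockouts for 25 of 26, 29 of 30, 15 of 15 and 6 of 7 members in these classes. The shares over all genes were 65.5%, 53.5%, 30.4% and 11.3%. The part of length in the shift of replicate 3 was not tested. Lengths are from GENCODE M21 and may differ from those the authors counted on. Mrps26, with 4278 bases there, spans only 130563757 to 130565394 on chromosome 2 in RefSeq, so some class memberships are uncertain.

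**Figure D4:**
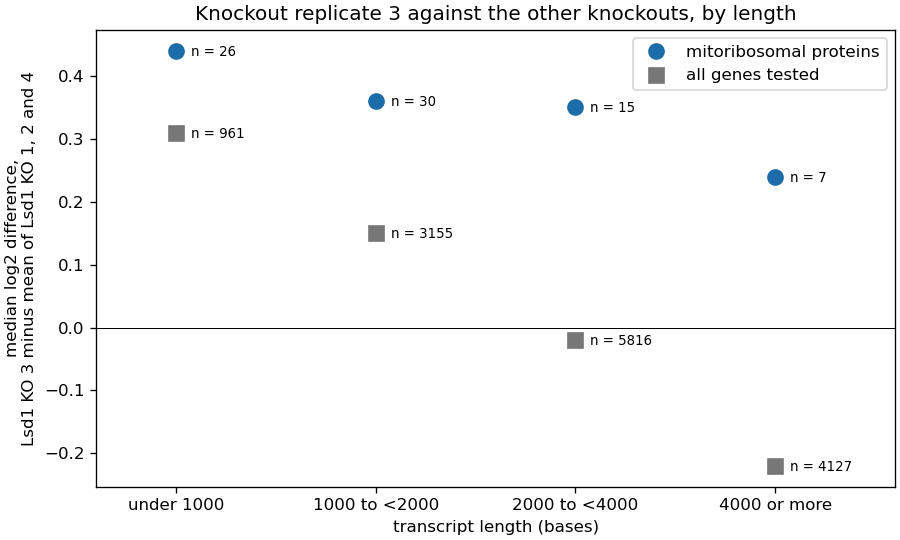
Median log2 difference between Lsd1 KO replicate 3 and the mean of Lsd1 KO replicates 1, 2 and 4, by GENCODE M21 transcript length. Circles are mitoribosomal genes and squares all genes tested, with the number of genes. The medians of all genes fall from 0.31 to -0.22 with length, and those of the members from 0.44 to 0.24.

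Skeletal muscle markers varied in the same libraries. The mean log2(value + 1) of 14 markers, of 15 listed, was 13.4, 13.3, 9.7 and 12.7 in Lsd1 KO replicates 1 to 4, against 10.5, 10.8, 11.1 and 9.05 in the controls. Their summed levels were 14401 to 217334 scaled reads in the knockouts, against 9596 to 41886 in the controls, and 0 of the 14 were at 0 in any library. Lsd1 KO replicate 3, with the least muscle RNA of the knockouts, had the most mitoribosomal RNA. The pairing did not hold in every library. Control replicate 4 had the least muscle RNA of any library, yet the median deviation of its mitoribosomal genes was -0.009. With the muscle score as a covariate, 45 of the 49 large-subunit genes had a positive difference and a median of 0.17, and 21 of the 29 small-subunit genes a positive difference and a median of 0.092. Still 0 were called (smallest limma adjusted p 0.114 and 0.215). The median over all genes was 0.011 in this fit. Only Lsd1 KO replicate 3 had a muscle score in the control range, so score and genotype could hardly be separated. The part of muscle RNA in the library differences was not tested.

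Taken as a list, markers of brown and beige adipocytes, which are rich in mitochondria, were also highest in that library. Their summed level over 10 genes was 7540, 11212, 16694 and 8190 scaled reads in Lsd1 KO replicates 1 to 4, against 12207, 12919, 4967 and 6550 in the controls. Their mean log2(value + 1) was 7.5, 8.06, 8.44 and 7.28 in the knockouts, against 8.18, 8.0, 6.92 and 7.27 in the controls. By both measures Lsd1 KO replicate 3 was highest, but replicates 1 and 4 changed places between them. Single markers were divided. Ucp1, Dio2, Otop1 and Ppargc1a were highest in Lsd1 KO replicate 3. Cidea, Cox7a1, Cox8b, Elovl3, Tbx1 and Zic1 were highest in other libraries. Ucp1, the uncoupling protein of brown fat, had 167, 1370, 4732 and 447 in the knockouts, against 3189, 1639, 384 and 756 in the controls. Zic1, a marker of classical brown fat, was at 0 in 2 knockout and 2 control libraries and did not exceed 3.27 in the others. None of these markers was called between genotypes (limma), and the part of brown and beige adipocytes in the library differences was not tested. B cell, macrophage, mammary and proliferation markers, the other lists examined, also had 0 genes called.

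**Figure D5:**
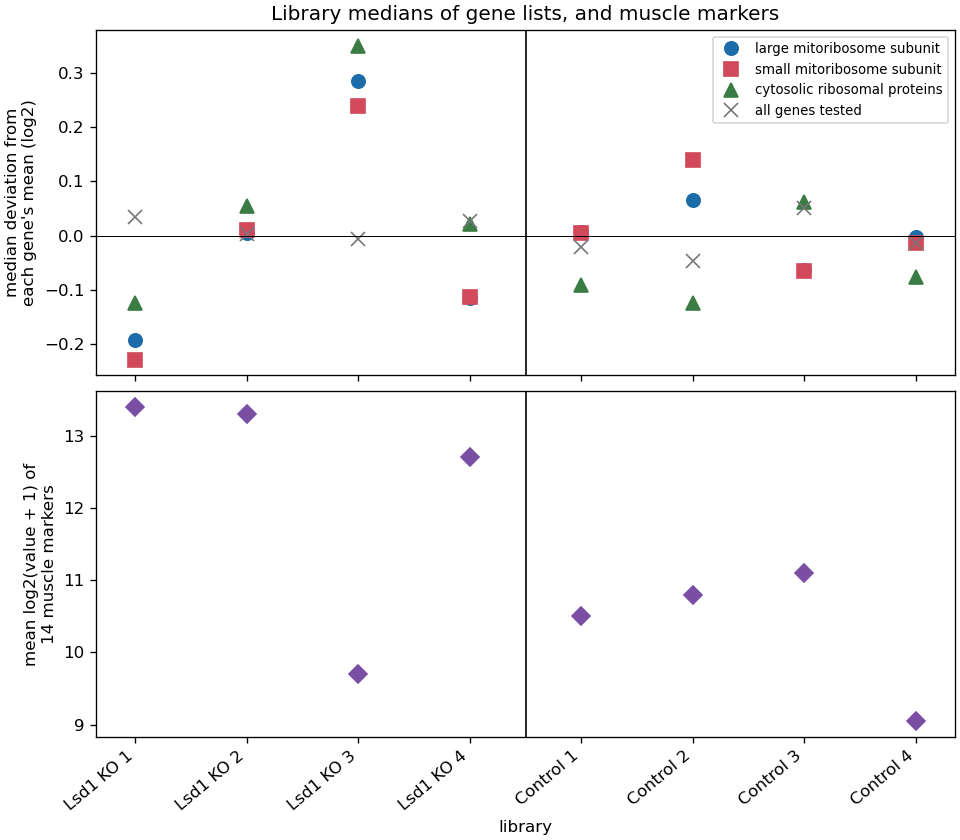
Upper panel, median deviation from each gene's mean over the 8 libraries (log2) for large- and small-subunit mitoribosomal genes, cytosolic ribosomal proteins and all genes tested. Lower panel, mean log2(value + 1) of 14 muscle markers. Lsd1 KO replicate 3 is highest in the upper panel at 0.285 and 0.239 for the subunits, and lowest of the knockouts in the lower panel at 9.7.

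Without Lsd1 KO replicate 3 the differences leaned downwards, with 40 of the 49 large-subunit and 24 of the 29 small-subunit genes negative. The medians were then -0.114 and -0.113, against 0.028 over all genes. At an unadjusted limma p under 0.05 there were 7 large-subunit and 6 small-subunit genes, where all genes gave 15.0%. Of the members 0 were called (smallest limma adjusted p 0.0909 for Mrpl45 in the large subunit and 0.0866 in the small subunit), against 449 of all 14591 genes. Without Lsd1 KO replicate 1 the medians were 0.06 and 0.016. The sign of both medians thus turned on which single knockout library was left out. It also depended on the controls: the small-subunit median was 0.005 without Control replicate 2. Without Control replicates 1 and 2 together the medians were 0.023 (large) and 0.013 (small).

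Of the mitoribosomal proteins with other names, 0 of 5 were called, against 1.64% of all genes. They were Dap3, Ptcd3, Chchd1, Aurkaip1 and Gadd45gip1, with a median difference of 0.101. Without Lsd1 KO replicate 3 the median was -0.031, so its sign turned on that library. Gadd45gip1, a large-subunit protein, had 869, 998, 1071 and 769 scaled reads in the knockouts, against 605, 696, 927 and 755 in the controls (log2 difference 0.32, SE 0.14, limma adjusted p = 0.349). Ptcd3, a small-subunit protein, had 641, 717, 667 and 610 in the knockouts, against 887, 710, 680 and 767 in the controls (-0.20, SE 0.098, limma adjusted p = 0.384). The knockout and control values overlapped for both.

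The machinery around the ribosome was likewise without a call, in lists of genes that serve mitochondrial translation. Of 15 translation factors 6 had a positive and 9 a negative difference (median -0.029), from -0.11 for Mtif2, the initiation factor, to 0.12 for Mtres1, which helps to rescue stalled ribosomes. Of 24 assembly and rRNA-modifying factors 9 were positive and 15 negative (median -0.053), from -0.29 for Ybey to 0.14 for Mrm1, an rRNA methyltransferase. Of 17 mitochondrial tRNA synthetases 5 were positive and 12 negative (median -0.031), with Cars2 highest at 0.23. In 2 of the 17 synthetases all knockouts lay below all controls, against 3.58% of all genes. Nars2, which charges the asparagine tRNA, had 160, 177, 180 and 170 in the knockouts, against 204, 214, 209 and 211 in the controls (-0.29, SE 0.090, limma adjusted p = 0.182). Iars2, which charges the isoleucine tRNA, had 1766, 1616, 1515 and 1616 in the knockouts, against 2290, 1910, 1820 and 1908 in the controls (-0.28, SE 0.089, limma adjusted p = 0.183), with 37.2% of its exon bases shared with Rab3gap2.

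Genes for the mitochondrial RNA polymerase and for RNA processing and stability had a lower median than the ribosomal genes, -0.116 over 14 genes. Of these, 4 were positive and 10 negative. Without Lsd1 KO replicate 3 the median was -0.122, against -0.114 for the 78 mitoribosomal genes, so the lists then hardly differed. In 4 of the 14 all knockouts lay below all controls, namely Tfb2m, Lrpprc, Mtpap and Elac2, against 3.58% of all genes. Lrpprc, which stabilises mitochondrial messenger RNAs, had 959, 1007, 946 and 961 scaled reads in the knockouts, against 1228, 1187, 1099 and 1113 in the controls. Its log2 difference was -0.26 with an SE of 0.067 (limma adjusted p = 0.111). DESeq2 called it (adjusted p = 0.0198), as it did 776 of all 14591 genes, against 239 with limma. Mtpap, the mitochondrial poly(A) polymerase, had 533, 568, 597 and 478 in the knockouts, against 654, 627, 629 and 709 in the controls (-0.27, SE 0.089, limma adjusted p = 0.200). Pnpt1, a mitochondrial polynucleotide phosphorylase, was highest at 0.09. Tfam, the transcription factor that packages mitochondrial DNA, was at 675 ± 41.8 in the knockouts and 674 ± 19.6 in the controls (SD, n = 4 each).

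Of 9 tested regulators of mitochondrial biogenesis, out of 10 listed, 0 were called by limma, against 1.64% of all genes. Ppargc1b, a coactivator of nuclear receptors, had 153, 84.9, 79.6 and 96.4 scaled reads in the knockouts, against 148, 269, 164 and 183 in the controls. Knockout replicate 1 alone reached into the control range. Its log2 difference was -0.89 with an SE of 0.24 (limma adjusted p = 0.119). It was called by DESeq2 (adjusted p = 0.0123), as were 776 of all 14591 genes. It was also called without knockout replicate 1 (limma adjusted p = 0.0352), as were 250 of all genes. Its paralogue Ppargc1a, which is induced by cold in fat, had 275, 217, 278 and 174 in the knockouts, against 135, 266, 179 and 155 in the controls (0.38, SE 0.22, limma adjusted p = 0.484). Among the factors whose letters are counted in the windows above, Nrf1 and Gabpa had differences of -0.04 and -0.09. Yy1 had 849, 806, 810 and 850 in the knockouts, against 869, 917, 931 and 903 in the controls (-0.13, SE 0.064, limma adjusted p = 0.410). Every knockout was below every control for Yy1, as for 3.58% of all genes. Sp1 had 1681, 1567, 1418 and 1600 in the knockouts, against 1661, 1436, 1816 and 1619 in the controls, and the groups overlapped.

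Cytosolic ribosomal proteins were fitted as the counterpart of the mitoribosome. Of 84 tested, 69 had a positive difference, against 7970 of 14591 of all genes, and the median was 0.13. The median came to 0.037 without Lsd1 KO replicate 3. By limma 1 gene was called, against 1.64% of all genes. That gene was Rpl29, a cytosolic large-subunit protein, with 1174, 1384, 1701 and 1464 scaled reads in the knockouts, against 2213, 2417, 2715 and 2562 in the controls. No knockout value came near the lowest control. The log2 difference was -0.80 with an SE of 0.11 (limma adjusted p = 0.00862, exact permutation p = 0.0286), and the call held in all 22 alternatives, with adjusted p up to 0.0426. The direction of Rpl29 was thus opposite to most of its list. It has 3 named pseudogenes, and how the authors counted reads that fit several copies is not given. The same limit holds for other genes of the list, such as Rpl31 with 24 named pseudogenes. Levels in the list also differed widely: Rpl24 averaged 15.8 in the knockouts and 18.9 in the controls, and Rpl4 11592 and 10889. Lsd1 KO replicate 3 was again the highest library, with a median deviation of 0.35 for the cytosolic list, and 71 of the 84 genes (84.5%) were above each of the other knockouts, against 75 of 78 mitoribosomal genes. The same count was 11 of 15 for the translation factors, 13 of 24 for assembly factors, 11 of 17 for synthetases and 8 of 14 for the polymerase and RNA stability genes. These counts are descriptions of 1 library. The share over all genes was 32.1%, and by length it ran from 65.5% under 1000 bases to 11.3% at 4000 bases or more.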

How the data were processed

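RNA-seq values of 8 libraries (4 Lsd1 KO, 4 Control) were used. Per the submitters' processing notes and the series' design text, reads were aligned to mm10 with TopHat 2, counted with HOMER and tested with edgeR and DESeq 1.8.3. The labels used here do not give HOMER's version, annotation, strand setting or scaling. The authors deposited a scaled signal per RefSeq accession: in every library 100% of the values under 2000 steps were whole multiples of 1 step (0.4423 to 0.5453, tolerance 0.02 of a step), so whole reads were recovered. Library totals were 13999923 to 14369969.

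Of 23373 rows per file, 1 without an accession held 0 and was left out, 22527 matched a RefSeq table (GRCm38.p6), 124 matched GENCODE M21, and 721 kept their accession. For 12 symbols with several rows, none a member, the row with the highest total was kept.

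Genotypes were compared with limma 3.58.1 in R 4.3.3, with trended variance on log2 values after a pseudocount of 1 was added and Benjamini-Hochberg adjustment over 14591 genes. This scale understates changes of low genes. Single genes were also compared by exact permutation (two-sided, all 70 assignments of libraries to groups). edgeR 4.0.16 and DESeq2 1.42.0 ran on recovered reads as alternatives. The limma fit was also run on simulated independent genes, 200 of them changed by more than any member differed here. That run does not bear on small differences or on genes that move together. Python 3.11.15 with pandas 2.3.3 handled the tables. The named genes were Kdm1a, the 4 highest and 4 lowest differences and the 2 highest and 2 lowest control levels per kilobase in each subunit, 12 genes chosen by role, and per companion list any called gene or else the extremes. Other genes were named after their values were seen. The members and lists were chosen with earlier results of these data known. In all 21 alternatives were planned and 1 was added after seeing the data.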

Additional observations from a re-analysis of the deposited data

Results flagged for a closer look

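In 86 groups of 4 libraries examined for a single library far from the rest, 4 were found, about as many as the 1 in 20 that chance gives. Mrps18b had 286 scaled reads in Control replicate 3, below the 325, 322 and 324 of the other controls, with a gap of 0.943 of the group's range. Mrps33 had 65.4 in Control replicate 2, above the 50.8, 50.4 and 51.1 of the others (0.958 of the range). Mrps12 had 347 in Control replicate 1, below 458, 474 and 463 (0.87 of the range). Mrm1, an rRNA methyltransferase of the assembly list, had 261 in Control replicate 4, below 294, 292 and 291 (0.908 of the range).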

How the results depend on the processing

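Under each of 21 other settings and 1 added after seeing the data, 0 mitoribosomal genes were called in either subunit. With DESeq2 the smallest adjusted p was 0.12 in the large and 0.276 in the small subunit, and with edgeR 0.211 and 0.321. Leaving out 1 library gave medians from -0.114 to 0.06 (large) and -0.113 to 0.016 (small), lowest without Lsd1 KO replicate 3 and highest without replicate 1. With the muscle score as a covariate the large-subunit median moved to 0.17, and signs turned for Mrpl30 (0.0091), Mrpl44 (0.062), Mrpl12 (0.28), Mrps2 (0.0045), Mrps21 (0.26), Mrps18c (0.11), Mrpl3 (0.021), Mrps22 (0.19) and Mrpl41 (0.069), and the cause was not tested. In that fit the median over all genes was 0.011, and only Lsd1 KO replicate 3 had a muscle score in the control range. Control replicates 1 and 2 have title numbers 518 and 517, apart from the rest. Without them Mrps33 was at 0.033, Mrps21 at 0.034 and Mrps22 at 0.076. With the B cell score Mrps33 was at 0.0037. Library totals gave Mrps12 0.0045 and Mrps22 0.0012, RLE scaling gave Mrpl58 -0.0078 and TMM scaling -0.0038. Without Lsd1 KO replicate 3 and those 2 controls together, an alternative chosen after seeing the data, Mrpl24 was at -0.015, Mrpl58 at -0.085 and Cars2 at -0.11. Leaving out 1 library gave ranges that cross 0 for Mrpl12 (-0.23 to 0.084), Mrps16 (-0.034 to 0.16), Mrps33 (-0.1 to 0.033), Mrps21 (-0.19 to 0.092), Mrps12 (-0.11 to 0.077), Mrps22 (-0.15 to 0.054), Mrpl58 (-0.14 to 0.095) and Mtres1 (-0.063 to 0.25). The companion lists had 1 call, Rpl29, in the reported fit, 4 with DESeq2 (adding Lrpprc, Ppargc1b and Rpl3l, a muscle form), 2 in the added alternative (adding Rpl3l) and 1 to 2 when 1 library was left out (adding Ppargc1b without Lsd1 KO replicate 1 and Rpl3l without replicate 3). Over all 14591 genes the reported fit called 239, DESeq2 776 and the added alternative 386. Without Lsd1 KO replicate 1 there were 250 such calls, and without replicate 3 there were 449. The call of Kdm1a was also lost with library totals (adjusted p = 0.0705), a pseudocount of 0.5 (0.0503), no filter (0.0582), a filter at 50 (0.0501) the muscle (0.0792) or B cell (0.0509) score, without Control replicates 1 and 2 (0.114) and in the added alternative (0.0593), all in limma. No paired analysis was possible because the groups share no number in the labels. Recovered reads limit Mrpl23, Mrps33 and Mrps36 most, since they held the fewest.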
